A study of Mus musculus with 8 samples.

Results

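Omt2a and Omt2b are a pair of neighbouring mouse genes named for oocyte maternal transcripts, and both were among the most abundant RNAs of the 2-cell embryos measured here. They are 2 of the 55487 genes in the deposited table and were selected on their share of counts in the 8 libraries and taken by symbol. Those shares are therefore described and not tested. RNA was sequenced from pools of 5 mouse embryos at the 2-cell stage, to ask how knockdown of Polq affects the whole transcriptome. Polq encodes DNA polymerase theta, an enzyme of alternative end joining of DNA breaks, and CasRx is a nuclease that an RNA guide directs to cut RNA. The 4 control samples came from embryos labelled as wild type and injected with CasRx. The 4 samples with the genotype label of Polq knockdown received CasRx together with a guide RNA against Polq, and are called knockdown-labelled. All embryos were injected at the 1-cell stage 20 h after human chorionic gonadotropin (hCG) and were collected 10 h later. The labels name no control guide, mouse strain or age, and every sample carries CasRx.

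The oocyte stores messenger RNA made before ovulation, and the early embryo lives on this maternal stock until its own genome is transcribed. In the mouse the main wave of zygotic transcription comes at the 2-cell stage, while most maternal messages are being deadenylated and degraded. Omt2 RNAs belong to the stored class by name. A single stage was sampled, so these data cannot show when the RNA was made, and "maternal" is used here as the genes' established name.

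In GRCm38, Omt2a (ENSMUSG00000066463.13) lies on the minus strand at chr9:78311972-78314796, and Omt2b (ENSMUSG00000038750.12) on the plus strand at chr9:78327589-78329620. Both are annotated as protein-coding, and 12792 bases separate them. The genes thus stand back to back, with their starts facing each other. GENCODE release M21 lists 5 transcripts for each gene. Omt2a-203 is 1167 bases long with 300 coding bases before the stop codon, and Omt2b-201 is 735 bases long with 357. Each has 3 exons, and the middle exon of 171 bases is entirely coding. That exon is printed because it shows how the copies can be told apart by sequence reads, in the transcribed direction, with capitals at the 40 bases that differ.
Omt2a, chr9:78312905-78313075, minus strand: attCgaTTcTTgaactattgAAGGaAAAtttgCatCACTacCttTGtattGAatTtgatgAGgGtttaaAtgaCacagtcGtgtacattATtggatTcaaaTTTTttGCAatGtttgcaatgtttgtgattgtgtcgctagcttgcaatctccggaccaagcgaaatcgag
Omt2b, chr9:78328522-78328692, plus strand: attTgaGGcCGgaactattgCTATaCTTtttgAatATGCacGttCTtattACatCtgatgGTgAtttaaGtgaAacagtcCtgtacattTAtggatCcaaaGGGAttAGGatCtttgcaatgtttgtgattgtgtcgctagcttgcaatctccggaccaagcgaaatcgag
The exons were identical at 131 of 171 bases (76.6%), and all 40 differences fell in the first 113 bases. The last 58 bases were the same in both.

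This identity continued into the last exon. Its 59 coding bases were the same in both genes, and across the whole last exon, 306 bases in Omt2a and 329 in Omt2b, 305 aligned bases were identical with no difference and 25 gap bases. The longest run shared without a break was 260 bases. The coding part of the first exon, by contrast, was 70 bases in Omt2a and 127 in Omt2b. There 46 aligned bases were identical, 15 differed and 75 were gaps (33.8% identity over the alignment). Identity was thus lowest in the coding part of the first exon, and the 3′ ends were near-identical. The noncoding part of the first exons was not aligned. Of all stretches of 100 bases, 16.8% of those in Omt2a-203 and 31.9% of those in Omt2b-201 also occurred in the other gene. For stretches of 50 bases the shares were 29.5% and 51.5%, and for stretches of 31 bases 36.6% and 58.2%. The last 2 shares are more than the longest run and the bases after it can hold, so some shared stretches lie further 5′. No stretch of 31 bases from either transcript occurred in a transcript of any other annotated gene, on either strand. Reads that lie wholly in the shared stretches cannot be assigned to 1 gene by sequence, and how such reads were counted is not stated. If they were left out, the shares, levels and ranks of both genes would be undercounts. If they were divided, the division between the members would rest partly on that rule.

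The bases before the starts of the genes resembled each other less than the last exons did. The 250 bases before each RefSeq start (GRCm38.p6) are printed in the transcribed direction because the members had like levels in the same libraries. Both windows lie inside the gene spans given above, because GENCODE also lists starts further upstream, those of Omt2a-202 and Omt2b-203. The bases before those starts were not searched. Capitals mark every match, on either strand, to an E-box (CANNTG), a NOBOX element (TAATTG) or a CCAAT box (CCAAT).
Omt2a, chr9:78314049-78314298, minus strand: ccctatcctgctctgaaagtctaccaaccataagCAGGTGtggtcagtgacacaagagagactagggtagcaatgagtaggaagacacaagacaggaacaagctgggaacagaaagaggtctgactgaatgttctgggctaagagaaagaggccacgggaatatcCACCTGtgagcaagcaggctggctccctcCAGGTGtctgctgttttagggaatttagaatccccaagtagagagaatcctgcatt
Omt2b, chr9:78327780-78328029, plus strand: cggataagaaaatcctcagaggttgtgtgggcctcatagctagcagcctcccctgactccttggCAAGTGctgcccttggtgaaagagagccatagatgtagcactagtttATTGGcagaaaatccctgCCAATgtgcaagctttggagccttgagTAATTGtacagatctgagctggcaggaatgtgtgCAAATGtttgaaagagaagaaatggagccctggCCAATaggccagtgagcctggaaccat
The aligned windows were 46.4% identical. The E-box is the core letters bound by basic helix-loop-helix factors, a family that includes the oocyte regulator Figla. It was found 3 times before Omt2a, beginning 216, 85 and 56 bases before the start, and 2 times before Omt2b, beginning 186 and 60 bases before it. An E-box stood in 66.2% of the 32851 RefSeq promoter windows of this length. The letters TAATTG, known for the oocyte homeobox factor Nobox, occurred once before Omt2b (94 bases before the start) and not before Omt2a, against 7.2% of all windows. CCAAT occurred 3 times before Omt2b and 0 times before Omt2a (33.8% of windows). Neither window held TATAAA (12.4%), TGATTG, the letters of an Lhx8 element (12.7%), or GGATTA, those of an Obox and Otx element (6.3%). None of these motifs overlapped another.

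Each control library held 33311665 to 43748621 counts. Knockdown-labelled replicates 1, 2 and 3 were shallower, with 4726159 to 8627403 counts, and replicate 4 held 33650050. Levels are given as counts per 1000000 (CPM) after scaling by the trimmed mean of M values. Polq itself was at 34.6, 49.7, 40.1 and 32.7 CPM in control replicates 1 to 4 and at 16.9, 38.9, 29.2 and 41.05 CPM in knockdown-labelled replicates 1 to 4. The groups overlapped, so libraries are named by their label. All 8 markers of 2-cell embryos and oocytes had counts in every library, Dppa3 most. Among them the 2-cell genes Zscan4d, Zfp352 and Zscan4c averaged 154, 119 and 41.9 CPM. Of 15 cumulus and granulosa cell markers, 8 were at 0 in every library, Has2, Ptgs2, Ptx3 and Fshr among them. The 15 summed to 39.4 to 63.03 CPM per control library and 45.2 to 77.9 CPM per knockdown-labelled library. Most of it was Nr5a2, which early embryos also express. Of the others, Amhr2 and Tnfaip6 were highest, averaging 4.81 and 4.64 CPM, and Tnfaip6 reached 16.2 CPM in control replicate 2. Of 10 sperm markers 7 were at 0 in every library, Prm1 and Tnp1 among them. The 10 summed to 15.2 to 76.5 CPM over all libraries. Most of this was Ldhc, at 9.92 to 76.5 CPM per library, and Prm2 averaged 3.06 CPM. Of 4 blood markers 2 were at 0 in every library, and Hba-a1 averaged 8.05 CPM. A level in such pools is RNA per 5 embryos relative to all other RNA, so that fewer cells and less RNA per cell cannot be told apart.

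Omt2b took 2.44%, 3.37%, 3.28% and 3.05% of all counts in control replicates 1 to 4, averaging 3.035% ± 0.416 (SD, n = 4). In knockdown-labelled replicates 1 to 4 it took 3.23%, 3.20%, 2.65% and 2.75%, a mean of 2.96% ± 0.301 (SD, n = 4). Control replicate 1 held the lowest share and control replicate 2 the highest, and all 4 knockdown-labelled libraries lay between them. Omt2a took 2.02%, 2.7%, 2.50% and 2.21% of counts in control replicates 1 to 4, averaging 2.36% ± 0.301 (SD, n = 4). In knockdown-labelled replicates 1 to 4 its share was 2.54%, 2.35%, 2.04% and 2.02%, a mean of 2.24% ± 0.250 (SD, n = 4). The groups overlapped for Omt2a as well, with knockdown-labelled replicate 4 and control replicate 1 almost equal at the low end. These shares rest on 119825 to 1093875 counts of Omt2a and 152475 to 1434364 counts of Omt2b per library. The widest exact binomial 95% interval was that of Omt2b in knockdown-labelled replicate 1, from 3.21% to 3.24%. Such intervals cover counting error only, and amplified copies of a molecule count separately, so they are not an error on a number of molecules. They overlapped between control replicate 1 and knockdown-labelled replicate 4 for Omt2a, and between knockdown-labelled replicates 1 and 2 for Omt2b.

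**Figure D1:**
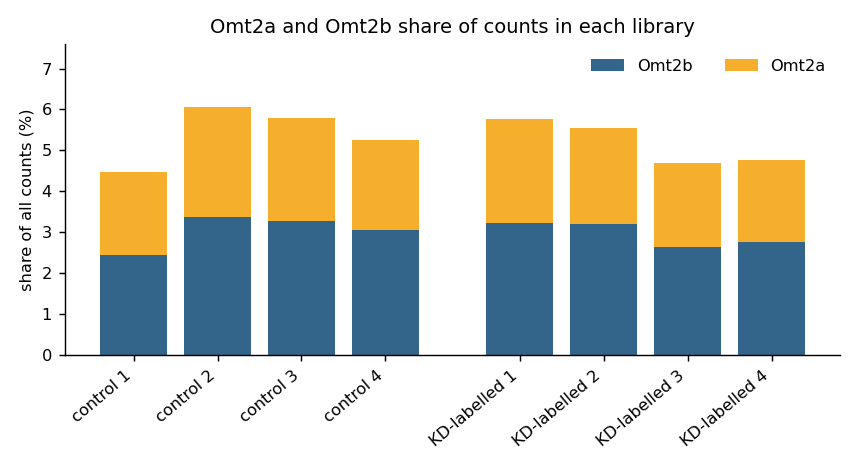
Stacked bars give the percent of all counts that fell to Omt2b (blue, lower) and Omt2a (yellow, upper) in each of the 8 libraries, controls left and knockdown-labelled (KD-labelled) libraries right. The pair's share runs from 4.47% in control replicate 1 to 6.07% in control replicate 2, and the knockdown-labelled libraries lie inside that range.

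Together the pair took 4.47%, 6.07%, 5.78% and 5.26% of counts in control replicates 1 to 4 (5.39% ± 0.703, SD, n = 4). The pair's share was 5.76%, 5.55%, 4.69% and 4.77% in knockdown-labelled replicates 1 to 4 (5.19% ± 0.544, SD, n = 4). Over all 8 libraries the mean was 5.29%, and the highest share was 1.36 times the lowest. Mitochondrially encoded RNAs, which moved between 17.8% and 27.7% of counts, enter the denominator. Without them the pair's share was 5.87% to 8.30% in the controls and 5.90% to 7.68% in the knockdown-labelled libraries, with control replicates 1 and 2 again the lowest and the highest.

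By count, Omt2b ranked the fourth and Omt2a the fifth of all genes in mean share. The 3 genes above them were mt-Cytb (cytochrome b, 7.83% of counts), mt-Rnr2 (the large mitochondrial ribosomal RNA, 6.72%) and Dppa3 (3.59%). Dppa3, also called Stella, protects the maternal genome from demethylation after fertilisation. Below them came mt-Nd1 (2.05%), mt-Nd2 (2.03%), mt-Rnr1 (1.93%) and mt-Nd4 (1.12%), all of mitochondrial DNA, and the nuclear gene Mphosph6 (0.709%), which encodes a partner of the RNA exosome. Among genes not encoded in mitochondria, Omt2b was the first in control replicate 2 and knockdown-labelled replicate 2 and the second, after Dppa3, in the other 6 libraries. Omt2a was the third in all 8. The 22026 least abundant of the 26413 nuclear genes with any signal held together no more of the counts than this pair.

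Counts favour long genes, so levels were also set per kilobase (kb) of annotated exon. The exons of all annotated transcripts of a gene were joined, for Omt2b also a retained-intron transcript of 1044 bases. Omt2b-201 alone has 735 bases and Omt2a-203 has 1167. The levels, folds and ranks per kb therefore depend on this choice of length, and another length was not tested. Omt2b, with 1546 exonic bases, reached 20008 ± 3402 CPM per kb in controls and 19009 ± 2349 in knockdown-labelled libraries (SD, n = 4 each). Omt2a, with 1465 exonic bases, reached 16442 ± 2937 and 15153 ± 1708 CPM per kb. Over 8 libraries they were the second and the third of the genes not encoded in mitochondria, after Dppa3 at 40378 CPM per kb. Next came Cks2, a small subunit of cyclin-dependent kinases, at 10062 CPM per kb, the predicted gene Gm5612 at 5333, Calm2, a calmodulin gene, at 4420, and Oosp1, an oocyte-secreted protein, at 4254 CPM per kb. By these means Dppa3 stood 2.07-fold above Omt2b, Omt2b 1.23-fold above Omt2a, and Omt2a 1.57-fold above Cks2. The ranges of Omt2a and Omt2b overlap between libraries on this scale, but within each of the 8 libraries Omt2b had more counts. Polq, for comparison of scale, stood at 3.65 CPM per kb.

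**Figure D2:**
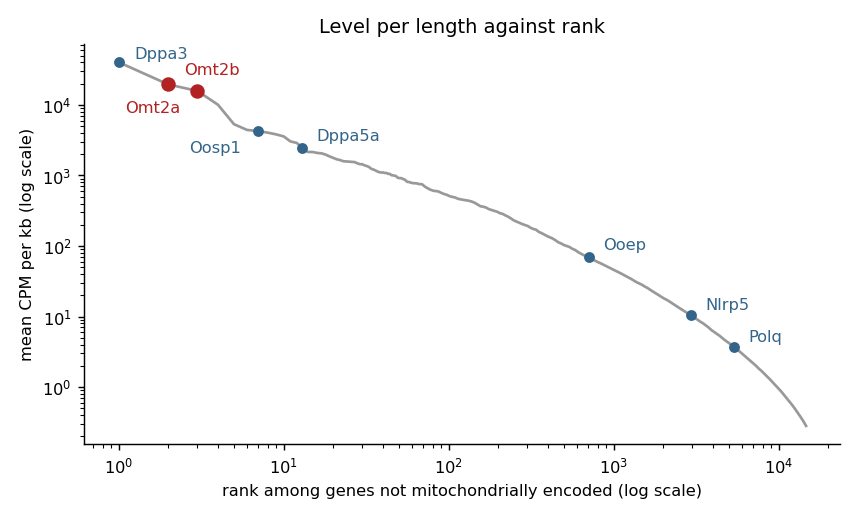
The grey line gives mean CPM per kb of exon over 8 libraries against rank among genes not encoded in mitochondria, both axes on a log scale. Past rank 61 it joins only some of the genes, and it ends at rank 14664. Exon length joins all annotated transcripts of a gene. On it Omt2b and Omt2a (red) take the second and the third place behind Dppa3. The oocyte genes Ooep and Nlrp5 (blue) lie at ranks 705 and 2946.

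Other stored oocyte messages give a yardstick. Of 54 such genes found in the table, 12 averaged 1000 CPM or more, and the median gene stood at 106 CPM, or 53.8 CPM per kb. The Omt2 pair stood at 0.725 to 1.1 times the sum of these 54 genes per library, and above the sum only in control replicate 2 and knockdown-labelled replicate 2. Dppa3 was the largest part of the sum. The 8 genes of the subcortical maternal complex, a protein assembly under the egg membrane that cleavage requires, summed to 506 to 846 CPM per control library and 446 to 908 CPM per knockdown-labelled library. The pair stood 59.5 to 110.0 times above them. Zbed3, a member of that complex, averaged 319 ± 92.6 CPM over controls and 315 ± 106.0 over knockdown-labelled libraries (SD, n = 4 each). A list of 31 genes taken as transcribed from the new genome at the 2-cell stage, the 2-cell burst, summed to 2210 to 3493 CPM. The pair stood 15.5 to 20.6 times above them. How much of their RNA was stored by the oocyte was not tested. The predicted gene Gm8300 and Dppa4, a chromatin factor of early embryos, were the highest of these, at 618 ± 303 and 294 ± 63.5 CPM in the controls. A list of 16 growth genes that are switched on at genome activation, led by the nucleolar protein genes Npm1 and Wdr43, summed to 2680 to 3719 CPM.

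Between the groups, the means of both members differed by less than the spread between libraries. The fitted values that follow describe genes selected on these same libraries, so they are given with their intervals and without a p. Omt2a stood at 20615, 29793, 25021 and 20919 CPM in control replicates 1 to 4 and at 23763, 24638, 19105 and 21293 CPM in knockdown-labelled replicates 1 to 4. The highest library was control replicate 2 and the lowest knockdown-labelled replicate 3, and the other 6 were interleaved. Its fitted level in the knockdown-labelled group was 92.2% of control, and its 95% interval ran from 73.7% to 115% (log2 fold change −0.12, SE 0.14, by edgeR). Omt2b stood at 24897, 37157, 32810 and 28863 CPM in control replicates 1 to 4 and at 30237, 33559, 24774 and 28978 CPM in knockdown-labelled replicates 1 to 4. Its group ranges overlapped nearly whole, with knockdown-labelled replicate 3 just under control replicate 1. The fitted Omt2b level was 95% of control, with an interval from 75.9% to 119% (log2 fold change −0.07, SE 0.14). Summed as a single gene, which does not depend on how the counts were divided between them, the pair was at 93.8% of control with an interval from 75.3% to 117% (log2 fold change −0.09, SE 0.14).

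The edgeR quasi-likelihood test called 0 of the 13146 genes tested at an adjusted p under 0.05 (0%). Of these genes 369 had an unadjusted p under 0.05 (2.81%). The common biological coefficient of variation, the spread between replicates beyond counting error, was 0.987. With that spread and 4 libraries a group, 0 calls do not show that the groups are alike. Under DESeq2 20 genes passed (0.152%), and limma-voom called 0, with 863 at an unadjusted p under 0.05. Groups that do not overlap were seen in 392 genes (2.98%), neither member among them. The direction of both members turned without control replicate 2, their highest control, to log2 fold changes of 0.0044 for Omt2a and 0.030 for Omt2b. Without knockdown-labelled replicate 3, their lowest library, the log2 fold changes were −0.053 for Omt2a and −0.00084 for Omt2b. Against the 4 controls, knockdown-labelled replicate 4 alone, an alternative added once the library totals were known and assuming that it varies like the controls, gave −0.17 and −0.085.

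**Figure D3:**
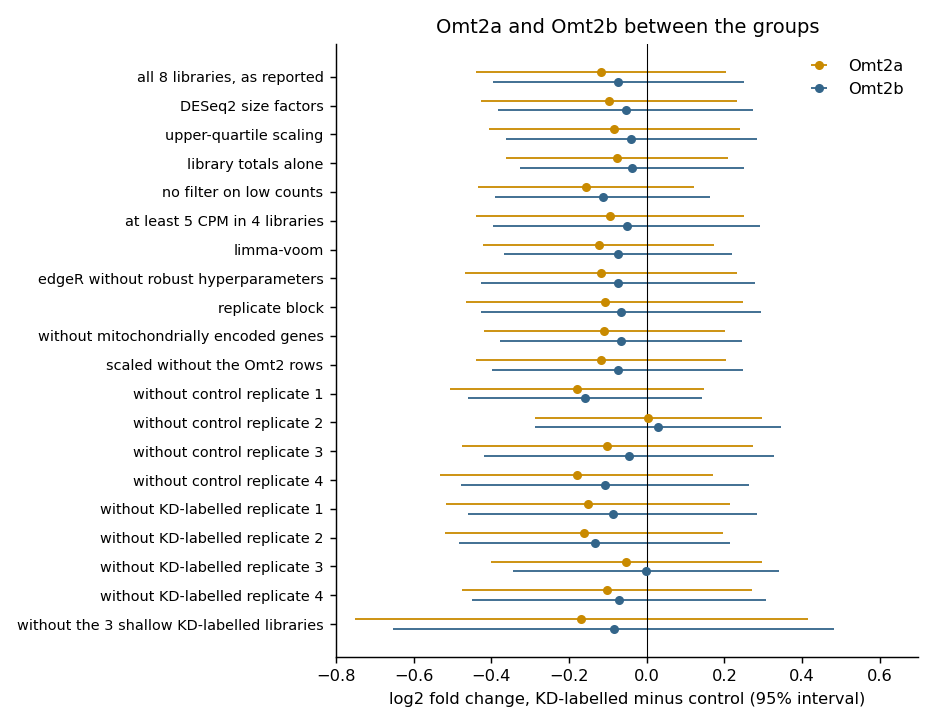
Points give the log2 fold change of Omt2a (yellow) and Omt2b (blue), knockdown-labelled (KD-labelled) minus control, and lines the 95% interval, for the fit with all 8 libraries (top) and for each alternative that gives an interval. Every interval spans 0, and the points move to the right of 0 only without control replicate 2.

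How the pair's counts divided was steadier than their level. Omt2a made up 45.3%, 44.5%, 43.3% and 42.02% of the pair's counts in control replicates 1 to 4, averaging 43.8% ± 1.43 (SD, n = 4). In knockdown-labelled replicates 1 to 4 it made up 44%, 42.3%, 43.5% and 42.4%, a mean of 43.06% ± 0.846 (SD, n = 4). The controls spanned the whole range, and the 4 knockdown-labelled libraries lay inside it. Put as a ratio, Omt2b had 1.21 to 1.38 counts per count of Omt2a. Across 8 libraries the ratio varied with a coefficient of variation of 4.67%, against 14.1% for the level of Omt2b and 14.7% for that of Omt2a. The median coefficient of variation was 17.9% over the 92 genes averaging 1000 CPM or more, of which 23 varied less than Omt2b and 31 less than Omt2a. Because each division rests on at least 272300 counts, its exact binomial 95% interval is narrow, at most 43.8% to 44.2% in knockdown-labelled replicate 1. The gap between control replicates 1 and 4 exceeds counting error. The part of reads from the shared stretches in the ratio was not tested.

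**Figure D4:**
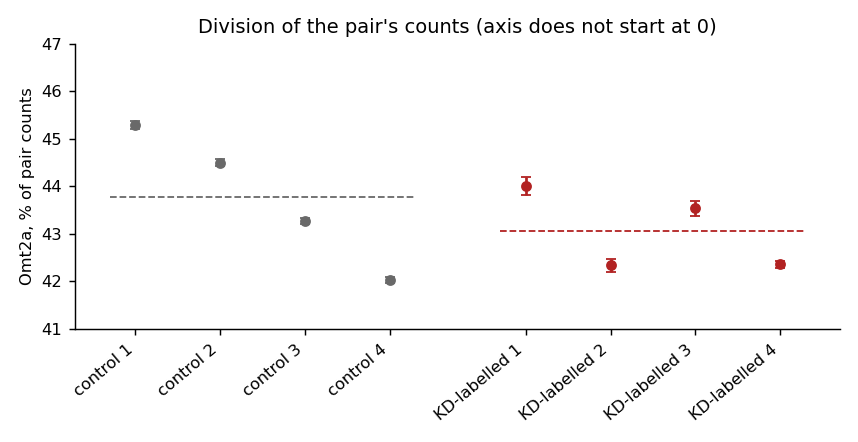
Points give Omt2a as a percent of the pair's counts in each library, with exact binomial 95% intervals for counting error, and dashed lines the group means; the axis does not start at 0. Controls (grey) run from 45.3% to 42.02%, and the knockdown-labelled libraries (red) fall between 44% and 42.3%.

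The values were also looked at for fractions. Expected counts that divide a read between genes need not be whole numbers. Omt2a was whole (within 0.005) in 6 of 8 libraries and Omt2b in 4 of 8, and the largest distance from a whole number was 0.38 counts for Omt2a and 0.46 for Omt2b. Among genes averaging 100 counts or more, 28.1% of values were not whole in the 4771 genes that overlap another annotated gene, and 3.3% in the 3925 genes that overlap none. No annotated gene overlaps Omt2a or Omt2b.

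The pair sits in a stretch of chromosome 9 with other genes of the oocyte and early embryo. Of the 24 annotated genes within 200 kb, 12 passed the filter on low counts. None of the 12 was called by edgeR (0% of all genes tested), 3 had positive and 9 negative log2 fold changes, and their median was −0.24, or 0.021 without control replicate 2. It was −0.50 when knockdown-labelled replicate 1 was left out. Over all 13146 genes tested, 6128 were positive and 7018 negative, with a median of −0.047. The nearest gene on the Omt2b side is Gsta2, 1.40 kb away, a glutathione transferase gene at 0 counts in all 8 libraries. The unprocessed pseudogene Gm8074, which lies between the pair, was also at 0 in all 8. With 3 counts as the floor, a count of 0 allows 0.595 CPM in the shallowest library and 0.0686 CPM in the deepest, for counting error only. Gsta1, Gm3776, Dppa5b and Dppa5c were at 0 in all 8 libraries too. On the Omt2a side the nearest gene, Gm10639, 6.45 kb away, had counts in control replicate 4 alone, at 4.05 CPM.

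Dppa5a and Ooep, 37.4 and 46.5 kb from Omt2b, were the next most abundant in this stretch. Both encode proteins of a KH-domain family of eggs and early embryos, and Ooep belongs to the subcortical maternal complex. Dppa5a was at 2051, 529, 998 and 1560 CPM in control replicates 1 to 4 and at 981, 1780, 2090 and 2185 CPM in knockdown-labelled replicates 1 to 4. Its lowest library was control replicate 2, where Omt2a and Omt2b were highest, and the groups overlapped (log2 fold change 0.45, SE 0.39, edgeR adjusted p = 1.0). Ooep was at 119, 282, 182 and 105 CPM in control replicates 1 to 4 and at 195, 100, 63.7 and 138 CPM in knockdown-labelled replicates 1 to 4. Like the Omt2 pair it was highest in control replicate 2 and lowest in knockdown-labelled replicate 3, with overlapping groups (log2 fold change −0.47, SE 0.39, edgeR adjusted p = 1.0).

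**Figure D5:**
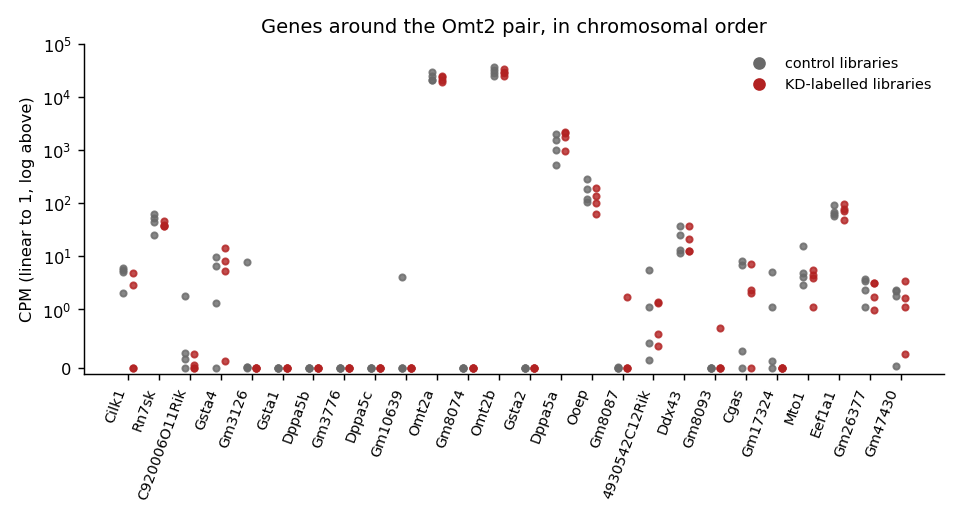
Each point is the CPM of a gene in a library, controls grey and knockdown-labelled (KD-labelled) libraries red, for the Omt2 pair and its 24 neighbours in chromosomal order; the axis is linear up to 1 CPM and logarithmic above. Omt2a and Omt2b lie at 19105 to 37157 CPM, while 6 neighbours are at 0 in every library.

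The remaining tested neighbours were low. Eef1a1, a translation elongation factor, averaged 69.8 ± 15.2 CPM over controls and 73.7 ± 20.9 over knockdown-labelled libraries (SD, n = 4 each), and Rn7sk, a small nuclear RNA that restrains transcription elongation, at 46.8 ± 16.1 and 39.8 ± 4.13 CPM. The RNA helicase gene Ddx43 was at 21.9 ± 12.3 and 20.8 ± 11.8 CPM. Mto1, which modifies mitochondrial transfer RNA, was at 6.95 ± 6.08 and 3.76 ± 1.90 CPM, and the DNA sensor gene Cgas at 3.80 ± 4.24 and 2.93 ± 3.12 CPM. Cilk1, a kinase gene, was at 4.68 ± 1.81 and 1.97 ± 2.42 CPM, and Gsta4, another glutathione transferase gene, at 4.40 ± 4.54 and 7.09 ± 6.07 CPM. Below these, Gm26377, Gm47430 and 4930542C12Rik averaged 2.46, 1.59 and 1.35 CPM over 8 libraries. Gm26377 lies within Eef1a1 on the same strand, and 4930542C12Rik overlaps Ddx43 on the other strand with no strand setting stated. The counts of both are therefore uncertain. Mto1 likewise overlaps Gm17324, and Cgas overlaps Gm8093, each on the other strand, so their counts carry the same limit.

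Within the stored oocyte list, 52 genes were tested, none was called by edgeR, and 43 of the 52 had negative log2 fold changes, against 7018 of all 13146 genes tested. Their median was −0.25, but −0.43 when knockdown-labelled replicate 1 was left out and −0.11 when replicate 3 of that group was. Omt2a and Omt2b, which were not on that list, lay on the same side with smaller values of −0.12 and −0.07 (SE 0.14 each). Without control replicate 2 both members were just above 0, while the median of the list was −0.14. The leaders of the list, Dppa3 and Oosp1, were close to no difference, at log2 fold changes of −0.052 (SE 0.14) and −0.055 (SE 0.20). Dppa3 averaged 36671 ± 3300 CPM over controls and 35363 ± 6566 over knockdown-labelled libraries, and Oosp1 at 4213 ± 955 and 4056 ± 885 CPM (SD, n = 4 each). In the subcortical maternal complex 6 of 8 genes were negative and 0 called. The median was −0.23, but −0.49 when knockdown-labelled replicate 1 was left out and −0.11 when control replicate 3 was. In the 2-cell burst 12 of 27 were negative and 0 called, with a median of 0.010, which leaving out knockdown-labelled replicate 1 moved to −0.27 and leaving out control replicate 2 to 0.18. In the growth genes 4 of 16 were negative and 0 called, with a median of 0.14, or 0.31 without control replicate 4. Among mitochondrially encoded genes 7 of 27 were negative and 0 called, with a median of 0.12, which leaving out replicate 2 moved to −0.0062 (knockdown-labelled) or 0.25 (control).

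The likeness of other genes to the pair was measured as the Pearson coefficient over the 8 libraries between log2 CPM of the gene and that of Omt2a plus Omt2b, as a description and with no p. Among 5391 named genes averaging 10 CPM or more the median coefficient was −0.043. The genes most like the pair were Ssbp3 (0.989), Tmem14c (0.949), Zbtb21 (0.941), Sptlc2 (0.933) and Olfr118 (0.930). They are the top 5 of 5391 over only 8 libraries. How many unrelated genes would reach such coefficients was not tested. All 5 varied more between libraries than either Omt2 gene. Ssbp3, a partner of LIM-domain transcription complexes, ran from 5.32 to 20.0 CPM with a coefficient of variation of 47.9%. Tmem14c, a mitochondrial membrane protein of haem synthesis, ran from 102 to 301 CPM, and Sptlc2, a subunit of the enzyme that begins sphingolipid synthesis, from 82.8 to 154 CPM. Zbtb21, a zinc finger gene, ran from 15.8 to 38.0 CPM, and Olfr118, an olfactory receptor gene, from 4.46 to 58.2 CPM. All 5 were highest in control replicate 2. Among all 6049 genes compared, Omt2b was the third most like Omt2a (0.945), and Omt2a the fourth most like Omt2b. How far reads from the stretches that the members share enter this coefficient was not tested. No library was left out for these coefficients, so the weight of control replicate 2 in them was not tested.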

How the data were processed

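Total RNA was isolated with TRIzol and sequenced from libraries of the NEBNext Ultra RNA kit, per the labels' protocols. The authors deposited RSEM expected counts, 1 row a gene symbol and not normalised, per the submitters' processing notes, which name Trim Galore 0.6.10, STAR 2.7.3a, RSEM 1.2.28 and GRCm38 (mm10). The authors' annotation, strand setting, read length and handling of reads with several matches are not stated in the labels.

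Expected counts were rounded to whole numbers (4.22% of values altered). Genes were kept with edgeR's filterByExpr (minimum count 10, minimum total 15), scaled by TMM and compared with edgeR 4.0.16 (robust quasi-likelihood test on group alone; R 4.3.3), with Benjamini-Hochberg adjustment over 13146 genes. Standard errors come from the estimate and its F statistic. DESeq2 1.42.0, limma 3.58.1 (voom), other scalings, other filters, a replicate block and leaving out libraries were alternatives. The labels call the samples biological replicates but name no litters or days, so p-values measure the spread between these pools.

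Exonic lengths, spans and transcripts came from GENCODE M21 and promoters from RefSeq (GRCm38.p6). Genes named are Omt2a, Omt2b, Polq, the 10 most abundant genes, tested neighbours within 200 kb, the 5 genes most like the pair and the leading members of each list. Genes named besides these, such as those at 0, were chosen after their values were seen. The members and lists were chosen with earlier results of these data known.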

Additional observations from a re-analysis of the deposited data

Results flagged for a closer look

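Mto1, a neighbour of the pair, was at 15.97 CPM in control replicate 2 against 2.84 to 4.94 CPM in the other controls, a gap larger than Dixon's 95% limit for 4 values. It was the only value past that limit in 52 groups of 4 libraries looked at, covering the shares, division and levels of the Omt2 genes, the level of Polq, the mitochondrially encoded share, the tested neighbours and the 5 genes most like the pair. Chance flags about 1 such group in 20. Mto1 overlaps Gm17324 on the other strand with no strand setting stated, so its counts are uncertain.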

How the results depend on the processing

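Leaving out each library in turn gave log2 fold changes from −0.18 to 0.0044 for Omt2a, from −0.16 to 0.030 for Omt2b and from −0.17 to 0.019 for their sum. The positive values are all without control replicate 2 (0.0044, 0.030 and 0.019), where the cause was not tested. For Polq it ran from −0.47 to −0.11, and was 0.073 with replicate 4 as the only knockdown-labelled library. Under the other settings Omt2a lay between −0.17 and −0.077, Omt2b between −0.11 and −0.038 and the sum between −0.13 and −0.055. No gene was called in any setting except with DESeq2, which called 20. The pair's mean share ran from 5.17% to 5.70% in the controls and from 5.002% to 5.36% in the knockdown-labelled libraries with 1 library of the group left out, and Omt2a's part of the pair from 43.3% to 44.4% and from 42.7% to 43.3%. Without mitochondrially encoded genes in the total, the pair's share was 6.99% and 6.78%, because the total is smaller. Per exonic length it was 5.99% and 5.72%. List medians changed sign with 1 library left out for the 2-cell burst (−0.27 to 0.18) and the neighbours (−0.50 to 0.021). They also did for the 2-cell embryo and oocyte markers (−0.25 to 0.051) and the mitochondrially encoded genes (−0.0062 to 0.25).

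A block for the replicate number gave log2 fold changes of −0.11 for Omt2a, −0.067 for Omt2b, −0.085 for their sum and −0.38 for Polq, with 0 genes called, and changed no call. Same-numbered libraries did not deviate together: the correlations of their deviations were −0.19, −0.035, −0.017 and 0.025, and 0 of 4 controls correlated best with their own number. The members had at least 119825 counts in each library, so counting error is small for them. Knockdown-labelled replicates 1, 2 and 3 were shallower than every control, so depth and label cannot be told apart in those libraries.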
